A study of Mus musculus with 2 samples.

Results

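A small set of erythroid cells was found among splenic donor T cells sorted for scRNA-seq, and these cells are described here. They were selected on measured values, the UMI counts of Car1, Car2 and Ermap. A UMI (unique molecular identifier) stands for 1 captured RNA molecule. Car1 and Car2 encode carbonic anhydrases, which interconvert carbon dioxide and bicarbonate, and Ermap encodes an erythroid membrane protein of the immunoglobulin superfamily. A barcode entered the set when it had 500 to 7500 detected genes, at most 15% mitochondrial UMIs and at least 10 UMIs of the 3 genes together. It also had to have fewer than 50 UMIs of S100a8 and S100a9, fewer than 5 of C1qa, C1qb and C1qc, and at most 5 of the T cell receptor genes Trac, Trbc1, Trbc2, Cd3d, Cd3e and Cd3g. The rule found 110 of 14973 kept barcodes, 93 of 7179 at day +7 and 17 of 7794 at day +14.

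Lethally irradiated BALB/c recipients had received T cell-depleted bone marrow and splenic T cells of C57BL/6 donors, a fully allogeneic model of acute graft-versus-host disease. Spleen cells, pooled from 5 recipients after lysis of red cells, were sorted as CD45+, H2kb+, H2kd- and TCRβ+ on day +7 or day +14. The sort thus asked for a donor MHC allele and a T cell receptor on the surface, and erythroid cells are not its target. Each day is 1 library, made on the 10x Genomics Chromium system. Both libraries carry PBS in their names, and the labels give neither the age nor the sex of the animals. The labels describe a day +7 sort for both libraries, so the day was taken from the titles. Donor or recipient origin of the erythroid cells was not tested.

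Erythroid progenitors descend from multipotent haematopoietic progenitors, divide several times under erythropoietin, and are driven by the transcription factors Gata1 and Klf1. As they mature they take up iron, make haem and globin, build the membrane skeleton of the red cell and finally lose the nucleus. Car1 is on early in this course, while globin, Alas2 and the anion exchanger Slc4a1 rise late. In mice the spleen is a site of erythropoiesis, and it takes a larger part in it after irradiation and marrow transplantation.

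Promoter windows are shown for 5 genes on which the description turns: Ermap of the rule, Klf1 and Rhag, which were on at both days, and Hba-a1 and Hbb-bt, whose levels differed between the days. The sequences are from RefSeq (GRCm38.p6), run 5′ to 3′ on the strand of the gene, and hold 250 bases before and 50 bases after the start of the gene. Capitals mark GATAA, the core of the motif of GATA factors, and CACCC, the core of that of Klf1; TTATC and GGGTG are the same motifs on the other strand. No 2 of the marked matches overlap in these windows.
Ermap: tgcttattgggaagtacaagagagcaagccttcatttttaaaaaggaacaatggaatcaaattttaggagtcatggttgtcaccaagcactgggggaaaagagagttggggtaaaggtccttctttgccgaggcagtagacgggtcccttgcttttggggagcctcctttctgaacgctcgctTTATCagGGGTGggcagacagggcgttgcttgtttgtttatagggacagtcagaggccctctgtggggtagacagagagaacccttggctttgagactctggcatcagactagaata
Klf1: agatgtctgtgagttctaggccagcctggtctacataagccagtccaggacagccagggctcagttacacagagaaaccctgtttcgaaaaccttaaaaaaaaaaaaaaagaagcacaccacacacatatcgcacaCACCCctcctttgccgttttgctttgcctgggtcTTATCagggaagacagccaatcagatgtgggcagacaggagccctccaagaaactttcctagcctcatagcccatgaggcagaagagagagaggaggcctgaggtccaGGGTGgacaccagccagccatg
Rhag: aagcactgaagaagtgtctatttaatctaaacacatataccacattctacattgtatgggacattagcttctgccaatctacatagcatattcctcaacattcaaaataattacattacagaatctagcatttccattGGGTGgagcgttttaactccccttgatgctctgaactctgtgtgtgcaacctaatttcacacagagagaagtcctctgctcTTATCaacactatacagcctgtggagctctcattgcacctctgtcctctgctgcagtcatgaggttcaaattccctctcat
Hba-a1: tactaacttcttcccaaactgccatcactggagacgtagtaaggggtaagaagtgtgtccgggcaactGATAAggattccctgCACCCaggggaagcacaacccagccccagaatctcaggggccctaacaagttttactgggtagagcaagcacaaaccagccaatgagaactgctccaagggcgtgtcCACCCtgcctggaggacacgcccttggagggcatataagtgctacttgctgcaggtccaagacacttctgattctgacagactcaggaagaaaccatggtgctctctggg
Hbb-bt: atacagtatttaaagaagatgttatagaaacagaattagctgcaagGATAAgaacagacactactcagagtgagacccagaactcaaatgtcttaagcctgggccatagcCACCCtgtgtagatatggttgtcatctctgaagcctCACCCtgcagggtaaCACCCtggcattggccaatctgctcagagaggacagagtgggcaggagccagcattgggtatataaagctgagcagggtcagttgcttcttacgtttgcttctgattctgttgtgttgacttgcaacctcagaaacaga
The window of Ermap is chr4:119189946-119190245 (minus strand), that of Klf1 chr8:84901732-84902031 (plus), that of Rhag chr17:40810899-40811198 (plus), that of Hba-a1 chr11:32283422-32283721 (plus) and that of Hbb-bt chr7:103813874-103814173 (minus). Each of the 5 windows held 1 GATAA match, which began 67 bases upstream of the start in Ermap, 80 in Klf1, 31 in Rhag, 182 in Hba-a1 and 204 in Hbb-bt. Among 105 genes of 7 erythroid lists described below, 78 had a window in the table, and 34 of these (43.6%) held GATAA in at least 1 window. GATAA stood in 28.4% of all 27025 symbols with a window and in 25.4% of the 32851 windows. CACCC was held by 61 of the 78 genes (78.2%) and by 59.8% of all symbols, or 57.5% of the windows. A match is a description of the letters and not a bound site.

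The erythroid cells made up 1.30% [1.05, 1.59] of the kept barcodes at day +7 and 0.218% [0.127, 0.349] at day +14. Brackets hold 95% intervals throughout, exact binomial (Clopper-Pearson) for shares, exact Poisson for levels and exact conditional binomial for ratios, and they cover counting error only. There is 1 library per day, so no test was made, and a difference between the libraries cannot be told apart from a difference between the days. The libraries hold 6840 and 7534 T cells, defined as barcodes with over 5 UMIs of the 6 receptor genes that stayed under the other 3 limits, with a median of 9158 and 8219 UMIs per cell. They also hold 34 and 59 neutrophil-lineage cells with 50 or more UMIs of S100a8 and S100a9, and 29 and 14 cells with 5 or more C1q UMIs. The libraries share 20 cell barcodes, of which 1 is an erythroid cell of day +7. The doublet caller Scrublet marked 0 of 7355 and 0 of 8043 barcodes and cannot be said to have worked, so doublets remain in the data.

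Depth separated the erythroid cells of the days. The day +7 cells had 2227 to 65298 UMIs with a median of 32565, and the day +14 cells had 1437 to 40175 with a median of 2597. Detected genes had a median of 4667 at day +7 and 1111 at day +14, and mitochondrial UMIs made up a median of 3.0% and 2.30%. Altogether, 2762671 UMIs stood behind the day +7 values and 110972 behind those of day +14, where the deepest cell alone held 36.2%. At day +14 a single UMI in the summed cells was therefore worth 9.01 CPM (UMIs per 1000000 UMIs summed over the cells of a class in a library). Fewer than 10000 UMIs were found in 20 of the 93 and in 15 of the 17 cells, and values of these shallow cells are given beside several results that rest on the contrast of the days.

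**Figure D1:**
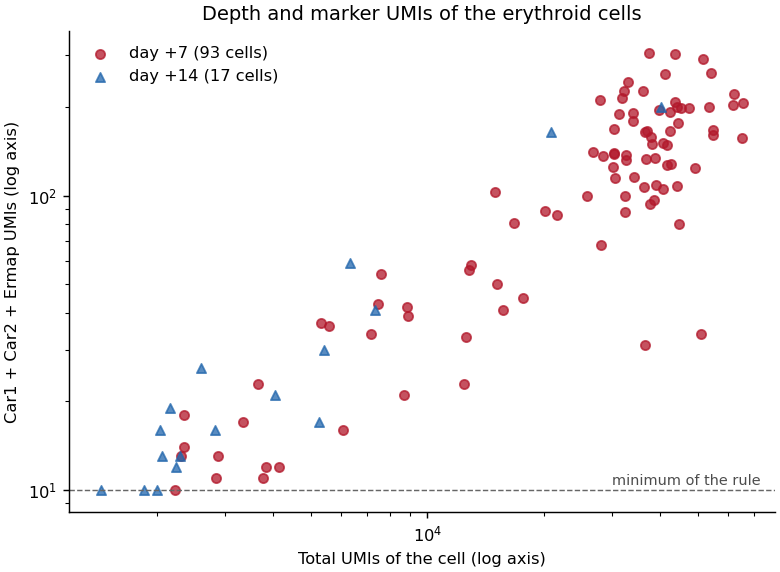
Total UMIs of each erythroid cell (x, log axis) against its UMIs of Car1, Car2 and Ermap together (y, log axis), with 93 day +7 cells as circles and 17 day +14 cells as triangles; the dashed line is the minimum of 10 UMIs. Most day +7 cells lie above 10000 UMIs, while 15 of the 17 day +14 cells lie below it and near the line.

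The 3 genes of the rule are given as a description, since they chose the cells. Their sum was 10 to 305 UMIs per cell with a median of 124 at day +7, and 10 to 200 with a median of 17 at day +14. Car1 was found in 92 and Car2 in 93 of the 93 day +7 cells, both were found in all 17 day +14 cells, and Ermap was found in 78 and 12. Just inside the threshold, at 10 to 14 UMIs, were 8 cells with 2227 to 4127 UMIs at day +7 and 6 cells with 1437 to 2296 UMIs at day +14. Just outside, at 5 to 9 UMIs, were 11 barcodes with 917 to 5820 UMIs and 1 barcode with 1329 UMIs. The minimum asks more of a shallow cell than of a deep one, which touches every comparison of the days.

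The limit on T cell receptor UMIs removed 20 barcodes at day +7 and 4 at day +14 that had passed the other parts of the rule. The 20 had a median of 46285 UMIs and 67 receptor UMIs and held erythroid genes at lower levels than the 93 erythroid cells of that day. Klf1 stood at 171 CPM [145, 200] against 205 CPM [189, 223], intervals that overlap, and Rhag at 134 CPM [111, 160] against 177 CPM [162, 193]. Blvrb, which encodes biliverdin reductase B of red cells, stood at 990 CPM [925, 1057] against 1313 CPM [1271, 1357], and the haem synthesis list at 1991 CPM [1899, 2086] against 2476 CPM [2417, 2535]. Their T cell and cytotoxic genes summed to 4406 CPM [4270, 4547], against 14182 CPM in T cells and 78.2 CPM [68.1, 89.3] in the erythroid cells. The 4 at day +14 had Klf1 at 21.7 CPM [0.549, 121] from 1 UMI, and their globin UMIs summed to 26742 CPM [25270, 28277]. Whether these barcodes are doublets of an erythroid cell and a T cell was not tested.

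The label of the cells was checked against markers the rule did not use. Gata1, the defining factor of the lineage, stood at 90.5 CPM [79.6, 102] (day +7) and 99.1 CPM [49.5, 177] (day +14), against 0.101 and 0.0368 CPM in T cells. Rhag, which encodes an ammonium channel of the Rh complex, stood at 177 CPM [162, 193] and 216 CPM [139, 322], against 0.138 and 0.0123 CPM in T cells. Epor, the erythropoietin receptor, stood at 88.0 CPM [77.2, 99.7] and 108 CPM [55.9, 189]. Tfrc, the transferrin receptor for iron uptake, was 10.6-fold [9.47, 11.8] the T cell level at day +7 and 7.13-fold [4.46, 10.8] at day +14. Late markers were low at day +7, where Alas2 had 5 UMIs (1.81 CPM [0.588, 4.22]) and Slc4a1 6 UMIs in 93 cells. The cells thus hold erythroid markers at both days, and the late markers Alas2 and Slc4a1 were low at day +7. No stage was read from Gata1, Rhag, Epor and Tfrc.

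Genes of other lineages were at or near 0. The platelet genes Pf4 and Ppbp, the mast cell and basophil genes Cpa3, Mcpt8, Ms4a2 and Fcer1a, the B cell genes Cd79a and Ms4a1, and all 5 NK cell genes had 0 UMIs in the erythroid cells of both days. The 12 megakaryocyte genes summed to 3.98 CPM [1.99, 7.12] at day +7 and to 2 UMIs at day +14. The 10 neutrophil genes summed to 32 UMIs or 11.6 CPM [7.92, 16.4] at day +7, and the 10 macrophage and monocyte genes to 15 UMIs or 5.43 CPM [3.04, 8.96]. Both lists hold genes that the rule limited, so that their low sums were set in part by the choice of cells and support nothing. S100a8 had 17 and S100a9 5 of the 32 UMIs, and C1qa and C1qc had 3 each of the 15. Among the neutrophil genes that the rule did not use, Prtn3 had 5 UMIs, Ngp, Camp, Ltf, Elane and Lcn2 had 1 each, and Mpo and Retnlg had 0 at day +7. Among the macrophage and monocyte genes outside the rule, Ly6c2 had 5 UMIs, Vcam1 2, Csf1r and Ccr2 1 each, and Lyz2, Adgre1 and Mrc1 0. At day +14 the lists held 1 UMI of S100a9 and 1 UMI each of Ly6c2 and Ccr2. The mast cell and basophil list summed to 15.9 CPM [11.6, 21.4] at day +7, above its 1.47 CPM in T cells, with 38 of 44 UMIs from Gata2, which erythroid progenitors also express, and 6 from the mast cell protease gene Cma1. At day +14 its 3 UMIs were of Gata2. Cd34, Flt3 and Meis1 of stem and multipotent progenitor cells had 0 UMIs in all 110 cells, which allows, as the worth of 3 UMIs, a level of 1.09 CPM (day +7) or 27.03 CPM (day +14). Spi1, a myeloid factor that opposes Gata1, had 1 UMI at day +7 and 0 at day +14.

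Transcripts of T cells were found at a low level. The 6 receptor genes were held down by the rule, and 47 of 93 and 11 of 17 erythroid cells had none of them. T cell and cytotoxic genes, which the rule did not use, summed to 78.2 CPM [68.1, 89.3] (day +7) and 216 CPM [139, 322] (day +14), which is 0.551% and 1.52% of their level in T cells. Single genes of this list ranged from 0.257% to 5.61% of the T cell level at day +7, with Cd4 at 0 UMIs. Gzma, which encodes granzyme A, stood at 0.312%, the chemokine gene Ccl5 at 0.436% and Nkg7 at 0.354%, while Lat (5.61%), which encodes an adaptor of the receptor complex, and Ptprc (2.54%), which encodes CD45, lay higher. At day +14 the erythroid cells held 0 UMIs of Gzma, 9 of Ccl5 and 7 of Nkg7. RNA of T cells taken up with the droplets was not tested as a source.

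**Figure D2:**
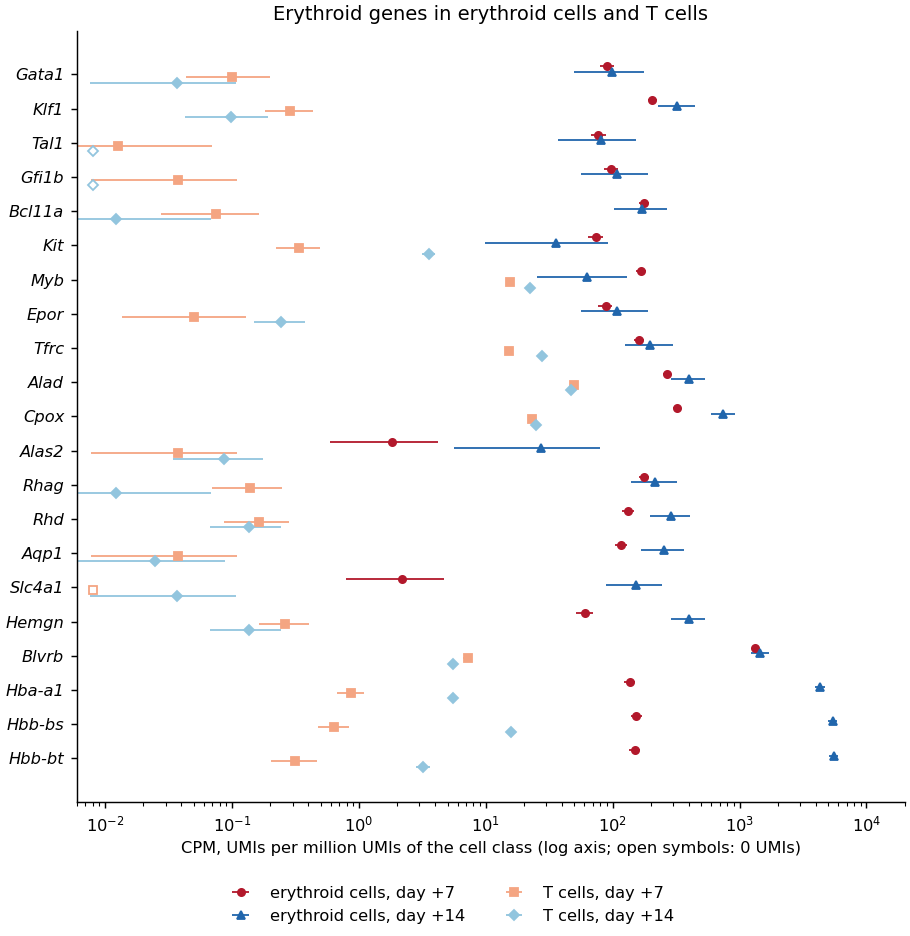
Levels in CPM (x, log axis) of selected genes in erythroid cells of day +7 (circles) and day +14 (triangles) and in T cells of the same libraries (squares and diamonds); bars are 95% Poisson intervals and open symbols stand for 0 UMIs. Gata1, Rhag and Blvrb have overlapping intervals at the 2 days, while Klf1, Slc4a1, Hemgn and the globin genes lie to the right at day +14.

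Erythroid transcription factors were among the genes most above T cells. Of 14 tested at day +7, 12 were at least 2-fold higher in erythroid cells (18.8% of 6922 genes tested were) and 0 were at least 2-fold lower (15.5% of genes were). At day +14, 12 of 13 tested were at least 2-fold higher, where 21.6% of 7115 genes were, and 0 were lower, where 23.4% were. These 4 shares are the background for the counts against T cells of every list below. Here and below, 2-fold is counted on CPM + 1 among genes whose mean over the 2 groups reached 10 CPM. A gene near 0 in T cells reached that mean only through the erythroid cells, so that its higher call was fixed beforehand. For such genes the counts are a description. Of the 14 factors, 5 reached 10 CPM in T cells over both days. The median log2 ratio of CPM + 1 was 3.92 and 4.70. Klf1, the activator of adult globin and of many erythroid genes, stood at 205 CPM [189, 223] and 324 CPM [227, 449] and was 710-fold [468, 1129] and 3304-fold [1510, 8227] above T cells. Lmo2, which bridges Gata1 and Tal1, stood at 175 CPM [160, 192] and 270 CPM [182, 386], and the repressor Gfi1b at 97.4 CPM [86.1, 110] and 108 CPM [55.9, 189]. Tal1, a partner of Gata1, had 213 and 9 UMIs, against 1 and 0 in all T cells.

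Bcl11a, which represses embryonic globin genes, stood at 176 CPM [160, 192] (day +7) and 171 CPM [103, 267] (day +14), and 6 UMIs of it were found in the T cells of day +7. The embryonic globin genes Hbb-bh1, Hbb-y and Hba-x had 0 UMIs in both groups of erythroid cells. Zfpm1, the cofactor of Gata1, was 3.79-fold [3.42, 4.18] and 3.70-fold [2.22, 5.78] above T cells. Klf3, at 42.0 CPM in erythroid cells and 30.2 CPM in T cells of day +7, and Zbtb7a, at 68.8 and 57.7 CPM, did not reach 2-fold there, nor did Ldb1 at day +14, at 36.0 and 42.0 CPM.

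To set shares of cells beside each other, every cell was thinned to 1400 UMIs. Klf1 was then found in 22 of 93 day +7 cells (23.7% [15.5, 33.6]) and in 5 of 17 day +14 cells (29.4% [10.3, 56.0]), against 0.0146% and 0.0133% of T cells thinned alike. Without thinning the shares were 89.2% and 70.6%. Gata1 was found in 12.9% [6.85, 21.5] and 17.6% [3.80, 43.4] of thinned cells, and in 79.6% and 35.3% of the cells as sequenced. The order of the days thus turned with depth for these genes, and neither difference was larger than the counting intervals of the thinned shares. Blvrb was found in 86.0% [77.3, 92.3] and 94.1% [71.3, 99.8] of thinned erythroid cells and in 1.13% and 0.667% of T cells.

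Of 14 early progenitor genes, 7 passed the minimum level at day +7, and 5 of these were at least 2-fold higher and 2 at least 2-fold lower than in T cells, where 18.8% and 15.5% of all genes were. At day +14, 4 of 7 were higher and 2 lower, where 21.6% and 23.4% of genes were, so that the share of lower genes was near that of all genes. Summed, the list stood at 593 CPM [565, 623] and 397 CPM [288, 532] in erythroid cells. Neutrophil-lineage cells held it at 628 CPM [557, 706] and 684 CPM [606, 768], so the sum was not particular to the erythroid cells. Kit, the stem cell factor receptor, stood at 73.8 CPM [64.1, 84.7] in 62 of 93 day +7 cells and at 36.0 CPM [9.82, 92.3] at day +14, where all 4 UMIs were in 1 cell. Myb, which keeps progenitors dividing, stood at 169 CPM [154, 185] and 63.1 CPM [25.4, 130], a ratio of day +14 over day +7 of 0.374 [0.15, 0.777]. Gata2, which precedes Gata1, had 38 UMIs in 27 cells at day +7 and 3 UMIs in 1 cell at day +14. Myc stood at 97.7 CPM [86.4, 110] and 90.1 CPM [43.2, 166] and Cdk6 at 189 CPM [173, 206] and 162 CPM [96.1, 256]. Without the deepest cell of each library, Kit had 0 UMIs and Myc 1 UMI at day +14, and the ratio was 0.147 [0.00371, 0.827] for Myc, 0.529 [0.212, 1.10] for Cdk6 and 0.256 [0.0525, 0.752] for Myb. Of the 10 Myc UMIs of day +14, then, 9 were in the deepest cell. In cells under 10000 UMIs the ratio of Myb was 0.398 [0.0424, 1.87], where a difference was not detectable.

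Of 14 genes of erythropoietin and growth factor receptors and their signalling, 9 were tested at day +7, with 4 at least 2-fold higher (18.8% of all genes) and 3 at least 2-fold lower (15.5%) than in T cells and a median log2 ratio of 0.08. At day +14, 4 of 9 were higher (21.6%) and 1 lower (23.4%), with a median of 0.72. Epor and Tfr2, a transferrin receptor that binds Epor, were higher at both days, with the kinase Lyn at 2.78-fold [1.99, 3.81] at day +7. Cish and Socs3, which are induced by STAT5 and STAT3 and damp cytokine signals, had 10 and 6 UMIs at day +7 and 0 at day +14. Pim1, a survival kinase, was at 0.283-fold and 0.270-fold of the T cell level. Bcl2l1, which encodes the survival protein Bcl-xL of erythroblasts, had 8 UMIs (2.90 CPM) at day +7 and 2 UMIs at day +14. Erfe, the hormone by which erythroblasts act on iron stores, had 6 UMIs and 1 UMI.

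Genes of haem synthesis were higher than in T cells for most members. Of 14 tested at day +7, 10 were at least 2-fold higher in erythroid cells (18.8% of all genes) and 0 lower (15.5%), and of 16 at day +14, 14 were higher (21.6%) and 0 lower (23.4%), with a median log2 ratio of 2.05 and 3.09. Cpox, the coproporphyrinogen oxidase, stood at 320 CPM [299, 341] and 748 CPM [596, 927], 13.9-fold [12.8, 15.1] and 30.1-fold [23.8, 37.5] above T cells. Fech, which inserts iron into haem, was 14.5-fold [12.2, 17.1] and 14.8-fold [7.61, 26.1] above, and Alad, the second enzyme of the pathway, 5.36-fold [4.95, 5.80] and 8.40-fold [6.09, 11.3]. Alas1, the housekeeping form of the first enzyme, was 1.10-fold [0.75, 1.57] at day +7, and its erythroid form Alas2 rested on 5 UMIs in 5 cells and 3 UMIs in 1 cell.

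Of 12 tested genes of iron uptake and storage, 7 were at least 2-fold higher at day +7 (18.8% of all genes) and 0 lower (15.5%). At day +14, 8 were higher (21.6%) and 3 lower (23.4%), and the share of lower genes was near that of all genes. Steap3, the endosomal ferrireductase, was 28.4-fold [23.3, 34.6] and 22.2-fold [11.4, 39.2] above T cells. Fth1, the ferritin heavy chain, stood at 3187 CPM [3121, 3254] and 5236 CPM [4818, 5679] against 999 and 963 CPM in T cells and 12784 and 23440 CPM in cells with C1q transcripts. Slc40a1, the iron exporter ferroportin, had 70 and 7 UMIs.

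Most tested genes of the red cell membrane and of blood groups were higher than in T cells. In T cells over both days, 4 of the 24 listed genes reached a mean of 10 CPM. Many of the tested genes thus entered through the erythroid cells, which fixed their direction, and the counts are a description. Of 14 tested at day +7, 11 were at least 2-fold higher (18.8% of all genes) and 0 lower (15.5%), and of 22 at day +14, 19 were higher (21.6%) and 1, Slc2a1, lower (23.4%). Aqp1, the water channel, stood at 117 CPM [104, 130] and 252 CPM [168, 365], with 3 and 2 UMIs in all T cells. Rhd, the Rh blood group gene, stood at 133 CPM [120, 147] and 288 CPM [197, 407] and Tspan33, a tetraspanin of erythroid cells, at 77.8 CPM [67.8, 89.0] and 171 CPM [103, 267]. Ank1, the ankyrin that ties the skeleton to the membrane, stood at 47.8 CPM [40.0, 56.7] and 117 CPM [62.4, 200]. Slc2a1, which encodes the glucose transporter Glut1, had 1 UMI in 93 cells and 0 in 17, against 11.5 and 27.6 CPM in T cells. At day +14, 0 UMIs allow 27.03 CPM, the worth of 3 UMIs, so that its count as lower there cannot be told from no difference. Cd36 had 0 UMIs in the erythroid cells. Among terminal maturation genes, 5 of 9 tested were at least 2-fold higher (18.8% of all genes) and 1 lower (15.5%) at day +7, and 8 of 13 were higher (21.6%) and 2 lower (23.4%) at day +14.

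Redox genes of red cells were more often higher than lower against T cells. Summed, the list stood at 6124 CPM [6032, 6217] and 7272 CPM [6779, 7792] in erythroid cells. Cells with C1q transcripts held it higher, at 6936 CPM [6420, 7481] and 9857 CPM [8566, 11288], and neutrophil-lineage cells lower, at 4041 and 3706 CPM. Of 14 tested, 8 were at least 2-fold higher (18.8% and 21.6% of all genes) and 1, Glrx, was at least 2-fold lower (15.5% and 23.4%) at both days. Blvrb stood at 1313 CPM [1271, 1357] and 1451 CPM [1235, 1693], 181-fold [166, 198] and 263-fold [218, 315] above T cells, and was found in all 110 cells. Gclm, the modifier subunit of glutathione synthesis, was 12.4-fold [11.6, 13.2] and 10.1-fold [7.34, 13.6] above, Gpx1, a glutathione peroxidase, 7.72-fold [7.40, 8.05] and 11.4-fold [9.56, 13.5], and Prdx2, a peroxiredoxin abundant in red cells, 4.0-fold [3.84, 4.16] and 6.88-fold [5.96, 7.90]. Hmox1, the haem oxygenase, had 1 UMI at day +7 and 0 at day +14. Of the genes linked to stress erythropoiesis, 2 of 8 tested were at least 2-fold higher and 4 at least 2-fold lower at day +7, where 18.8% and 15.5% of all genes were, and 2 of 7 were higher and 3 lower at day +14, where 21.6% and 23.4% were. Cd81, a tetraspanin, stood at 279 CPM [260, 300] and 126 CPM [69.0, 212].

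The 7 erythroid lists (transcription factors, erythropoietin and growth factor receptors, globins, haem synthesis, iron, membrane and blood group, and terminal maturation) hold 105 genes, none of them a rule gene. Of these, 76 were tested at day +7 and 89 at day +14. At day +7, 53 were at least 2-fold higher than in T cells and 4 at least 2-fold lower, and at day +14 the counts were 69 and 7. In T cells over both days, 42 of the 105 reached the minimum level. Many of the others were tested through their level in erythroid cells, which fixed their direction, so the counts are a description. The median log2 ratio was 2.07 and 3.14, where it was 0.18 and 0.09 over all genes tested. Scaling by the median ratio of well-covered genes in place of the total lowered these log2 ratios by 0.33 at day +7 and by 0.44 at day +14. With no minimum level the medians of the erythroid lists were 1.80 and 2.77.

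**Figure D3:**
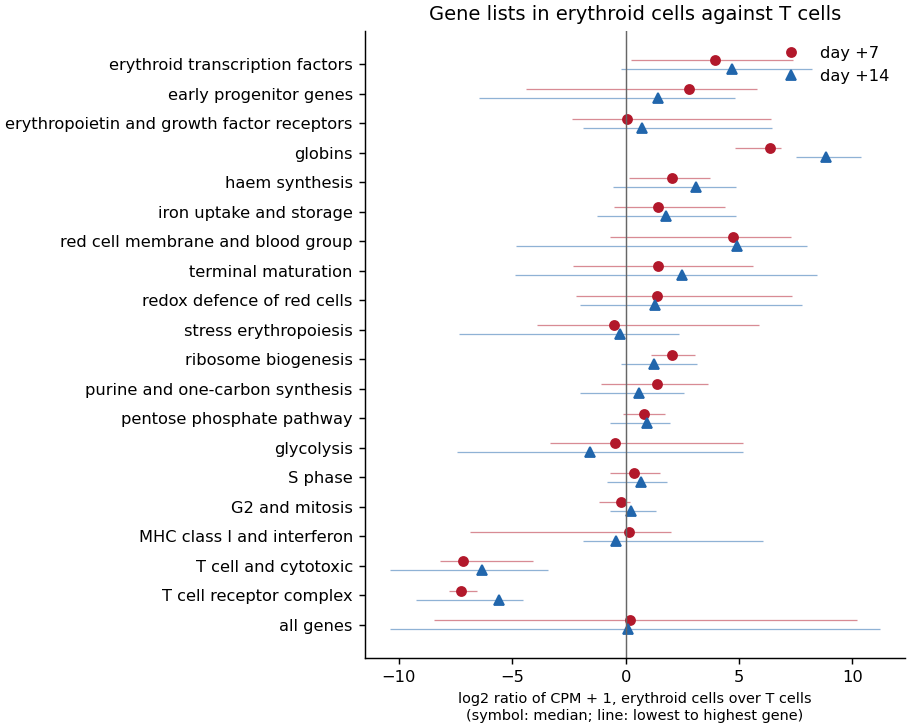
Median log2 ratio of CPM + 1 in erythroid cells over T cells (x) for 19 gene lists and all genes tested, at day +7 (circles) and day +14 (triangles), with lines from the lowest to the highest gene. Globins, transcription factors and membrane genes lie farthest to the right, T cell lists farthest to the left, and all genes near 0.

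Outside the lists, the genes highest against T cells at both days included several of erythroid cells. Cd24a, whose surface protein is used to stage erythroblasts, had 424 CPM at day +7 and 973 CPM at day +14 and was 337-fold and 277-fold above T cells, though neutrophil-lineage cells held it at 266 and 594 CPM. Tspo2, an erythroid member of the translocator protein family, stood at 206 and 180 CPM, Smim1, the gene of the Vel blood group, at 137 and 234 CPM, and Ces2g, a carboxylesterase, at 150 and 108 CPM. The others were C1qtnf12, Tnfaip2, Lmna, Gatm, Gstm5, Mt2, Ifrd2, Crip2, Iigp1, Lgals9 and H2-Eb1. Mt2, a metallothionein, was 52.4-fold and 32.9-fold above T cells, and H2-Eb1, a chain of MHC class II, 90.7-fold and 15.4-fold, where cells with C1q transcripts held H2-Eb1 at 1097 and 4716 CPM, above its 168 and 153 CPM in erythroid cells. Neutrophil-lineage cells held Tnfaip2 at 240 CPM and erythroid cells at 218 CPM (day +7), and cells with C1q transcripts held Gatm at 300 CPM where erythroid cells had 110 CPM. Lowest against T cells were Lgals3, Ifi27l2a, Cd52, Skap1, Klf2, Bcl2a1b, Sh2d1a, Cxcr6, Gm19585 and Stat4. Cd52 had 48 UMIs in erythroid cells of day +7, a level of 0.00342 of that in T cells.

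Ribosome biogenesis genes were at least 2-fold higher than in T cells in 15 of 15 at day +7 (18.8% of all genes) and in 11 of 15 at day +14 (21.6%), with a median log2 ratio of 2.04 and 1.25. Npm1, nucleophosmin, stood at 3855 CPM [3782, 3929] and 2830 CPM [2525, 3160] and Gnl3, nucleostemin, was 8.39-fold [7.83, 8.99] and 4.65-fold [3.18, 6.57] above T cells. Of 20 purine and one-carbon genes, 11 were at least 2-fold higher (18.8%) and 1 lower (15.5%) at day +7, with a median log2 ratio of 1.37. At day +14, 6 of 19 were higher (21.6%) and 2 lower (23.4%), with a median of 0.61. Mthfd1, which interconverts folate-bound carbon units, was 13.2-fold [12.0, 14.6] and 6.08-fold [3.65, 9.51] above.

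The pentose phosphate pathway, which makes NADPH and ribose and is the subject of the study, is represented by 7 genes. At day +7, 3 of 7 were at least 2-fold higher than in T cells (18.8% of all genes) and 0 lower (15.5%), and the median log2 ratio was 0.83. At day +14, 3 were higher (21.6%) and 0 lower (23.4%), and the median was 0.96. Summed, the list stood at 1528 CPM [1482, 1575] and 1496 CPM [1277, 1742] in erythroid cells. Neutrophil-lineage cells held it higher, at 2285 CPM [2147, 2429] and 2663 CPM [2508, 2825]. Cells with C1q transcripts had 911 CPM [731, 1122] and 802 CPM [467, 1284]. G6pdx, the first enzyme, stood at 56.8 CPM [48.3, 66.5] and 36.0 CPM [9.82, 92.3] against 16.3 and 18.1 CPM in T cells. Pgd, which encodes 6PGD, stood at 70.6 CPM [61.0, 81.2] and 36.0 CPM [9.82, 92.3], 1.68-fold [1.44, 1.94] and 0.683-fold [0.186, 1.75] of the T cell level. Rpia was 3.36-fold [2.97, 3.79] and 4.01-fold [2.33, 6.43] above, and Tkt 2.21-fold [2.08, 2.35] and 2.02-fold [1.5, 2.66].

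Of 17 glycolytic genes tested at day +7, 4 were at least 2-fold higher (18.8% of all genes) and 5 at least 2-fold lower (15.5%) than in T cells, with a median log2 ratio of -0.45. Of 19 at day +14, 5 were higher (21.6%) and 14 lower (23.4%), with a median of -1.57. The share of higher genes was thus near that of all genes at both days. Summed, the list stood at 3131 CPM [3066, 3198] and 2235 CPM [1965, 2531] in erythroid cells, the latter from 248 UMIs. In T cells it stood at 4574 and 7107 CPM, so that both sides of the ratio differed between the libraries. Among the enzymes with several genes, 2 pairs are given as examples. Pklr, the pyruvate kinase of liver and red cells, had 99 and 4 UMIs, against 2 and 1 in all T cells. Pkm, the pyruvate kinase of most other cells, was at 0.0978-fold [0.0798, 0.119] of the T cell level at day +7. Pfkm was 17.6-fold [13.0, 23.7] above T cells at day +7 while Pfkp was at 0.182-fold. Gapdh was at 0.576-fold [0.555, 0.598] and 0.295-fold [0.232, 0.369].

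Most S phase and G2 and mitosis genes lay within 2-fold of the T cells, which cycle themselves. Summed, the S phase list stood at 127% and 163% of its T cell level, and the G2 and mitosis list at 78.2% and 138%. Of 20 S phase genes, 4 were at least 2-fold higher at day +7, a share near the 18.8% of all genes, and 7 at day +14, where 21.6% of genes were. None of the 20 was at least 2-fold lower at either day, and the median log2 ratios were 0.38 and 0.67. Of 20 G2 and mitosis genes, 0 were higher and 2 lower at day +7 (18.8% and 15.5%), and 3 higher and 0 lower at day +14 (21.6% and 23.4%). Genes of cell cycle inhibitors were lower more often. Of 9 tested, 1 was higher and 5 lower at day +7, and 1 higher and 4 lower at day +14. Their list summed to 27.0% and 41.3% of its T cell level. Thinned to 1400 UMIs, Mki67 was found in 22.6% [14.5, 32.4] of day +7 cells and 23.5% [6.81, 49.9] of day +14 cells, against 19.9% and 23.9% of T cells. Pcna, the clamp of DNA replication, was found in 31.2% [22.0, 41.6] and 52.9% [27.8, 77], against 20.2% and 25.1%. Every day +14 cell had at least 1 UMI of the S phase list, as had 92 of 93 day +7 cells, and no phase was read from this.

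Interferon-inducible genes differed from T cells by gene. Ifitm3, an antiviral membrane protein, stood at 623 CPM [594, 653] and 694 CPM [548, 867] in erythroid cells, whereas T cells had 155 and 9.38 CPM, so that its ratio to T cells was 4.03-fold [3.83, 4.23] at day +7 and 74.0-fold [57.8, 93.6] at day +14. Ifitm1 had 9 UMIs and 1 UMI. Among MHC class I genes, H2-D1 was at 0.465-fold and 0.474-fold and B2m at 1.07-fold and 0.874-fold of the T cell level. Psmb8, a subunit of the immunoproteasome, was at 0.648-fold [0.622, 0.675] and 0.268-fold [0.188, 0.371].

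The days were then compared within the erythroid cells. Of 6514 genes whose mean level reached 10 CPM, 14.4% were at least 2-fold higher at day +14 and 10.9% at least 2-fold lower, where 10 CPM is near the worth of 1 UMI at day +14. Above a mean of 200 CPM, a limit set with the values known, 18 of 687 genes were higher and 16 lower. A gene near 0 at one day reached the 10 CPM mean only through the other day, so that its call was fixed beforehand. For such genes the counts between the days, here and below, are a description. Against the 14.4% over all genes, 9 of 16 haem synthesis genes, 12 of 22 membrane and blood group genes, 6 of 10 terminal maturation genes and 4 of 4 adult globin genes were at least 2-fold higher at day +14, and 0 of these lists were lower. Among erythroid transcription factors 1 of 14 was higher (Zbtb7a) and 2 lower (Ldb1 and Cbfa2t3, from 4 UMIs and 1 UMI), among iron genes 1 of 11 was higher, and among redox genes 0 of 14 were. Without the deepest cell of each library, 9 of 15 haem synthesis, 13 of 22 membrane and blood group, 7 of 11 terminal maturation and 4 of 4 globin genes were at least 2-fold higher, where 16.5% of all genes were. Iron genes then had 2 of 11 higher and 2 lower, and redox genes 2 of 14 higher.

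Counts of S phase, G2 and mitosis, and ribosome biogenesis genes between the days moved with the cells included. Of 20 S phase genes, 4 were at least 2-fold higher at day +14 (14.4% of all genes) and 1 lower (10.9%), but 10 were higher without the deepest cell of each library (16.5%) and 13 in cells under 10000 UMIs (25.2%). Of 20 G2 and mitosis genes, 6 were at least 2-fold higher, and 7 and 9 under these settings. Of 7 tested genes of cell cycle inhibitors, 5 were at least 2-fold higher, and 5 of 6 were under each of these settings. That list had 34 UMIs in the day +14 cells. All 20 G2 and mitosis genes and 18 S phase genes lay above 1-fold, where 3463 of 6514 genes did. In T cells of the same libraries 16 and 18 of the 20 did, where 5111 of 6867 genes did. Without the deepest cells, Plk1 at 0.249 [0.00626, 1.41], Kif23 at 0.552 [0.0138, 3.18] and Ube2c at 0.993 [0.611, 1.53] lay below 1-fold, the first 2 from 1 UMI each at day +14. Of 15 ribosome biogenesis genes, 11 lay below 1-fold, where 3051 of 6514 genes did. At least 2-fold lower was 1 of the 15, against 6 without the deepest cells (17.3% of all genes) and 7 in cells under 10000 UMIs (21.7%). Npm1 was at 0.734 [0.654, 0.821] and Ncl, nucleolin, at 1.19 [1.06, 1.34], but without the deepest cells Ncl was at 0.653 [0.533, 0.792] and its direction turned.

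Several haem enzymes were higher at day +14. The ratio was 2.34 [1.85, 2.93] for Cpox, 2.11 [1.39, 3.08] for Urod and 4.27 [2.10, 7.93] for Ppox (6.53 without the deepest cells), which act one after another in the later steps of the pathway. Tmem14c, which carries protoporphyrinogen into mitochondria, was at 2.04 [1.71, 2.42], while Alad was at 1.49 [1.07, 2.02] and Fech at 1.39 [0.707, 2.48]. Among cells under 10000 UMIs the ratio was 2.35 [1.38, 4.03] for Cpox, 2.32 [1.18, 4.62] for Urod, 2.49 [1.85, 3.36] for Tmem14c and 1.99 [1.10, 3.61] for Alad. Slc25a37, mitoferrin 1 of the mitochondrial membrane, was at 12.5 [6.38, 23.4], from 32 and 16 UMIs, and at 19.9 [2.83, 864] in shallow cells, from 1 and 10 UMIs.

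With all cells summed, the late genes Slc4a1 and Hemgn had the largest ratios of the genes given next, and Slc4a1 rested on few UMIs. Hemgn, hemogen, had 167 UMIs in 61 day +7 cells and 44 UMIs in 11 day +14 cells, a ratio of 6.56 [4.59, 9.19], and 6.64 [3.07, 15.9] in cells under 10000 UMIs. Slc4a1, the anion exchanger, had 6 UMIs in 2 cells and 17 UMIs in 4 cells, a ratio of 70.5 [26.5, 218], which was 25.9 [3.89, 1100] in cells under 10000 UMIs, from 1 and 13 UMIs. Rhd was at 2.17 [1.46, 3.12], Aqp1 at 2.16 [1.41, 3.18] and Ank1 at 2.45 [1.27, 4.34]. In shallow cells these ratios were 2.23 [1.10, 4.56], 14.9 [3.47, 135] from 2 and 15 UMIs, and 4.98 [0.815, 52.3] from 2 and 5 UMIs. Klf1 was at 1.58 [1.10, 2.22], and at 2.39 [1.27, 4.56] in shallow cells. Rhag at 1.22 [0.775, 1.84], Epor at 1.23 [0.626, 2.19] and Gata1 at 1.10 [0.540, 1.99] did not differ beyond counting error. Nor did Blvrb at 1.11 [0.938, 1.29], but without the deepest cell of each library it was at 1.39 [1.16, 1.66]. Tfrc was at 1.23 [0.760, 1.88], but at 1.76 [1.06, 2.75] without the deepest cells and at 4.98 [1.83, 15.7] in cells under 10000 UMIs, from 6 and 15 UMIs.

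**Figure D4:**
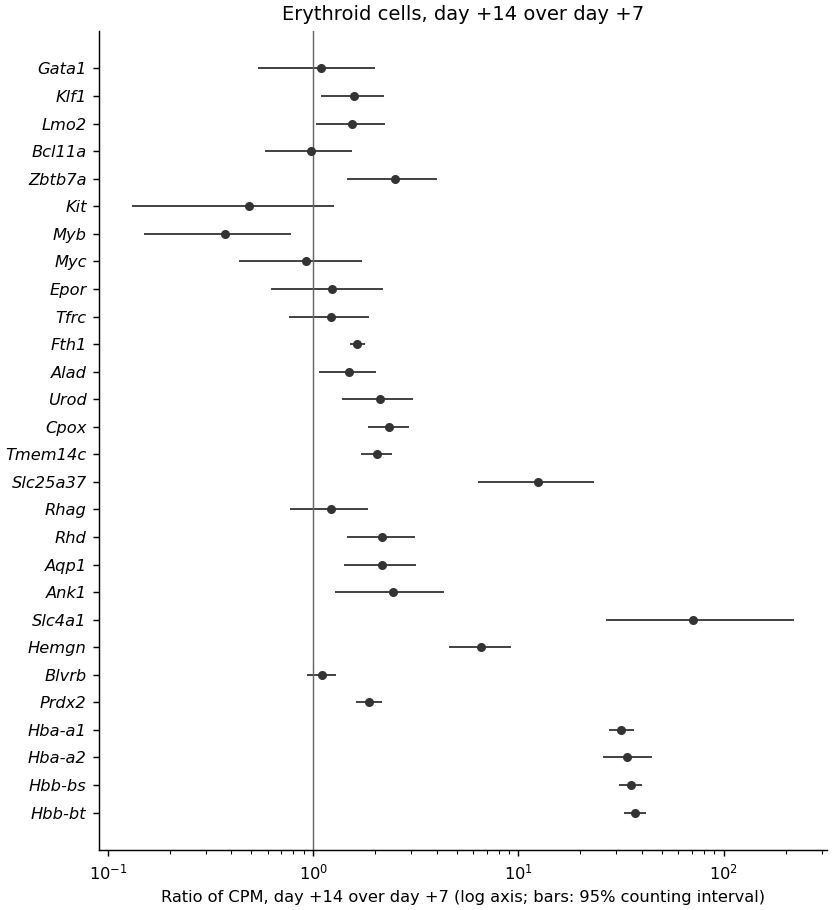
Ratio of CPM at day +14 over day +7 in the summed erythroid cells (x, log axis) for selected genes in order of role; bars are 95% exact conditional binomial intervals and the vertical line stands for equal levels. With all cells summed, Gata1, Bcl11a, Epor and Tfrc lie near the line, though Tfrc was at 1.76 without the deepest cells, Cpox, Urod and Tmem14c near 2, and Slc4a1 and the 4 globin genes farthest to the right.

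Adult globin genes were higher at day +14. The 4 genes together had 1314 UMIs or 476 CPM [450, 502] at day +7 and 1828 UMIs or 16473 CPM [15726, 17245] at day +14. Hba-a1, an alpha globin gene, went from 137 to 4343 CPM, a ratio of 31.7 [27.7, 36.4], and Hbb-bt, a beta globin gene, from 150 to 5524 CPM, a ratio of 36.9 [32.5, 41.9]. Hba-a2 was at 33.9 [25.9, 44.5] and Hbb-bs at 35.2 [31.0, 40.0]. The 2 alpha genes and the 2 beta genes are near-identical copies, so that reads may be split between copies. T cells of the same libraries held globin at 2.09 CPM [1.78, 2.43] and 30.3 CPM [29.1, 31.5], far under the erythroid cells of their own day, with more at day +14 as well. Cells with C1q transcripts held it at 373 CPM [261, 516] and 519 CPM [259, 928], from 36 and 11 UMIs. Their interval at day +7 overlapped that of the erythroid cells. Neutrophil-lineage cells had 0 UMIs and 1 UMI.

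The ratio of globin rested on few cells and moved with depth. At day +7 the cells had 0 to 405 globin UMIs with a median of 1, 44 of 93 had none, and 6 cells with 30 or more held 90.2% of all globin UMIs. At day +14 they had 0 to 594 with a median of 40, 3 of 17 had none, and 10 cells had 30 or more, a share of 58.8% [32.9, 81.6] against 6.45% [2.40, 13.5] at day +7. The highest cell gave 17.3% of its UMIs to globin at day +7 and 15.4% at day +14. Among cells under 10000 UMIs, 4 of 20 at day +7 and 9 of 15 at day +14 had 30 or more, and the summed levels were 9502 and 28283 CPM, a ratio of 2.98 [2.74, 3.24]. Without the deepest cell of each library the ratio was 53.0 [49.3, 56.9]. The deepest day +14 cell, with 40175 UMIs, had 2 globin UMIs and 31 of early progenitor genes, including all 4 of Kit.

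**Figure D5:**
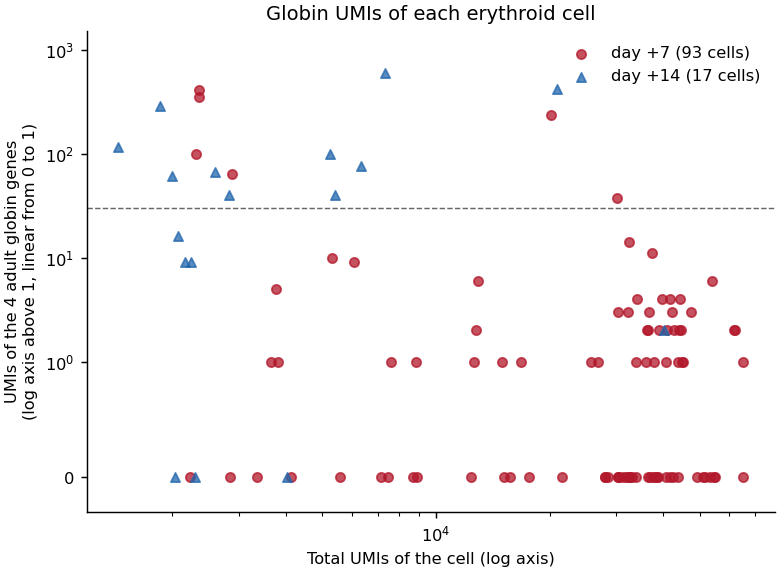
Total UMIs of each erythroid cell (x, log axis) against its UMIs of the 4 adult globin genes (y, log axis above 1 and linear below), for day +7 (circles) and day +14 (triangles); the dashed line is at 30 UMIs. Of the 93 day +7 cells 6 lie above the line and of the 17 day +14 cells 10 do, most of them at under 10000 total UMIs.

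Thinning to 1400 UMIs gave the same order. Hbb-bt was found in 6.45% [2.40, 13.5] of day +7 cells and 76.5% [50.1, 93.2] of day +14 cells, against 0.0585% and 0.334% of T cells, and in 29.0% and 82.4% of the erythroid cells as sequenced. Hba-a1 was found in 10.8% [5.28, 18.9] and 64.7% [38.3, 85.8], against 0.117% and 0.480%. Hemgn, which the globin UMIs do not enter, was found in 10.8% [5.28, 18.9] and 47.1% [23.0, 72.2]. For Rhag the shares were 26.9% [18.2, 37.1] and 17.6% [3.80, 43.4] and for Tfrc 24.7% [16.4, 34.8] and 11.8% [1.46, 36.4], within the intervals of each other.

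Cells with 30 or more globin UMIs also differed from the others in other genes. The 6 day +7 cells with 30 or more globin UMIs, a group chosen by their own globin and so described with no test, had haem synthesis genes at 5898 CPM [5301, 6545], where the other 87 had 2399 CPM [2341, 2458]. Their early progenitor genes were at 216 CPM [115, 369] against 602 CPM [573, 632]. The 10 such cells of day +14 had haem genes at 7256 CPM [6567, 7997], where the other 7 had 2308 CPM [1924, 2747], and Hemgn at 661 CPM [466, 911] against 127 CPM [51.2, 262]. Their early progenitor genes stood at 143 CPM [61.7, 282], against 654 CPM [458, 906]. Of the 36 early UMIs in the 7 cells, 31 were in the deepest cell. Without it the other 6 cells had early genes at 337 CPM [109, 786] and Hemgn also at 337 CPM [109, 786], intervals that overlap those of the 10 cells, and haem genes at 3437 CPM [2559, 4519]. Haem genes were thus higher in the cells with 30 or more globin UMIs in both libraries. Early genes were lower in them, but at day +14 the difference was within the counting intervals once the deepest cell was left out. Depth moved with this split at day +7, where 4 of the 6 cells had fewer than 10000 UMIs, as had 20 of all 93. At day +14, 9 of the 10 cells were this shallow, but so were 15 of all 17. The part of depth was not tested.

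Correlations across cells were weak to moderate. The 73 day +7 cells with 10000 UMIs or more were thinned to that number. In them the haem list and Blvrb had a Spearman coefficient of 0.55, and early genes and haem one of -0.40. Early genes and a sum of 8 late genes, Slc4a1 and Hemgn among them, had one of -0.20. The haem list and the late genes had one of 0.60, but both hold Alas2, and the late genes had a median of 1 UMI per thinned cell. S phase and G2 genes had one of -0.05. These cells share a library, and the coefficients are given as a description.

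Single genes that moved most between the days, outside the lists, were mostly sparse. Apol11b had 6 UMIs at day +7 and 29 at day +14, a ratio of 120 [49.1, 354], with 41.4% of the day +14 UMIs in 1 cell. Ccnd3, cyclin D3 of erythroid divisions, was at 6.08 [3.97, 9.06], with 45.2% of the day +14 UMIs in 1 cell. Hebp1, a haem-binding protein, was at 5.51 [3.61, 8.18] and Mgst3, a microsomal glutathione transferase, at 3.77 [2.49, 5.51], each with 25.8% in 1 cell. Rgcc, Hagh, Atp2b4 and Pts were the others on the higher side, and 1 cell held 58.3% of the day +14 UMIs of Hagh. On the lower side, Ly6a, the surface antigen Sca-1, went from 1596 to 9 UMIs, a ratio of 0.140 [0.0641, 0.267], with 66.7% of the 9 in 1 cell, and Iqgap1 from 309 to 0. Ptpn18 was at 0.247 [0.0992, 0.513], and Mndal, Dstn, Ddx27, Tubb3 and Plekhj1 had 2 to 4 UMIs each at day +14.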

How the data were processed

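The authors deposited UMI counts per gene and barcode, 1 matrix per library, with Cell Ranger 6.1.2 and mm10 named in the submitters' processing notes. Barcodes with 500 to 7500 genes and at most 15% mitochondrial UMIs were kept, and cell classes were made by thresholds on raw counts. Counts of a class were summed per library and divided by their total (CPM), and genes of 1 symbol were summed. Ratios with a pseudocount of 1 CPM were taken for genes with a mean of 10 CPM or more. With 1 library per day no test was possible, and 95% intervals cover counting error only. The members and gene lists were chosen with earlier results of these data known. Outside the lists, the text names the 15 highest and 10 lowest genes against T cells (100 CPM or more at both days) and the 8 highest and 8 lowest between days (20 UMIs or more). Doublets were scored with Scrublet in scanpy 1.11.5 and none were removed. Python 3.11.15, numpy 2.4.6, scipy 1.17.1 and pandas 2.3.3 were used. The ratio code was tested on simulated data. Some genes of the lists are not reported here.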

Additional observations from a re-analysis of the deposited data

Results flagged for a closer look

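For 2 gene lists the median log2 ratio of erythroid cells over T cells had opposite signs at the days. For G2 and mitosis genes it was -0.20 at day +7 and 0.24 at day +14. For MHC class I and interferon genes it was 0.14 at day +7 and -0.43 at day +14. Each day is 1 library, and the difference between the days was not tested.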

How the results depend on the processing

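Each of 7 values was recomputed under planned and added settings. Of 63 such values, 41 stayed within the counting interval or within 1.5 times of the reported count, 22 moved and 0 changed direction. With 0 T cell receptor UMIs allowed, the share of erythroid cells at day +7 was 0.655%. With at least 20 UMIs of the marker genes, the share at day +14 was 0.0898%. The median log2 ratio of the erythroid lists over T cells at day +7, reported as 2.07, was 2.59 with 0 receptor UMIs, 2.25 with the mean of per-cell CPM, 1.74 with median-ratio scaling, 1.55 with a pseudocount of 10 CPM, 1.80 with no minimum level and 2.55 in cells under 10000 UMIs. At day +14, reported as 3.14, it was 3.74 without the deepest cells and 2.06 with a pseudocount of 10 CPM. Of the days compared, 939 genes at least 2-fold higher became 1588 with 0 receptor UMIs, 508 with a pseudocount of 10 CPM, 1482 with no minimum level, 1619 in cells under 10000 UMIs and 18 above 200 CPM. The 709 genes at least 2-fold lower became 1130, 417, 3387, 1393 and 16 under these settings, 1420 with the mean of per-cell CPM and 1101 without the deepest cells. The settings of cells under 10000 UMIs and of 200 CPM, and the globin comparison without the deepest cell, were chosen after seeing the data. Why these values moved was not tested, apart from the number of cells or genes that a setting leaves out. Few cells and 110972 UMIs limit the day +14 values. No paired analysis was possible because each day is 1 library and the results come from no test.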
